A study of Mus musculus with 12 samples.

Results

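The respiratory chain is built from proteins of 2 genomes, and the genes described here are those of complexes I to V as named by their symbols. They were taken from the deposited tables as protein-coding genes whose symbol begins with Nduf followed by a, b, c, s or v, Uqcr, Cox4 to Cox8 or Atp5, the 4 Sdh genes, and the mitochondrial mt-Nd, mt-Co, mt-Cytb and mt-Atp genes. The table of the wild-type (WT) and knockout (KO) libraries holds 104 of them among 18601 genes, 13 encoded in mitochondrial DNA and 91 in the nucleus. The table of the sorted fractions holds 103 among 21361 genes, 13 mitochondrial and 90 nuclear. The nuclear genes of the first table comprise 46 of complex I, 4 of complex II, 8 of complex III, 16 of complex IV and 17 of complex V. The 8 Ndufaf assembly factors are counted with complex I. Ndufa4 is counted with complex I by its name, although its protein is a subunit of complex IV.

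RNA came from group 2 innate lymphoid cells (ILC2s), lymphocytes that respond to tissue alarm signals with type 2 cytokines, sorted from lungs of C57BL/6 mice aged 8 weeks. The mice had received 3 intranasal doses of 0.5 µg recombinant IL-33, and the sorted cells were kept for 24 hours with 10 ng per mL each of IL-2 and IL-7. LAIR-1 is an inhibitory receptor that binds collagen. In all, 4 groups of 3 libraries were compared, each pair within its own table: WT (libraries 9, 10 and 11) with LAIR-1 KO (13, 14 and 15), and WT cells carrying surface LAIR-1 (LAIR-1+, libraries 1, 2 and 3) with WT cells lacking it (LAIR-1-, libraries 7, 8 and 10). No separation of the WT libraries by surface LAIR-1 is stated in the labels, nor how the knockout was made, nor whether each library is 1 animal or a pool. The p-values therefore reflect only library-to-library spread, which may be technical.

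Complex I (NADH dehydrogenase), complex II (succinate dehydrogenase), complex III (cytochrome bc1) and complex IV (cytochrome c oxidase) pass electrons to oxygen and, complex II excepted, pump protons across the inner mitochondrial membrane. Complex V, the ATP synthase, uses the returning protons to make ATP. Mitochondrial DNA encodes the hydrophobic cores of complexes I, III, IV and V and no subunit of complex II. Its genes are read as long polycistronic transcripts from each strand, with all the chain's mitochondrial mRNAs except mt-Nd6 on the heavy-strand transcript, so their levels share a source. The nuclear subunits are transcribed one by one, and their promoters are known to be bound by NRF1, by ETS-family factors such as GABP, and by YY1.

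The sequences that bear most on the counts are stretches shared between mitochondrial genes and pseudogenes in the nuclear genome. On the minus strand of chromosome 1, between 24612407 and 24616197 (GRCm38, the mm10 build of the tables), lie 6 annotated pseudogenes that match mt-Co1 in part and mt-Co2, mt-Atp6, mt-Co3, mt-Nd3 and mt-Nd4l nearly in full. The first pair shows the start of mt-Nd3 (chrM:9459-9518, plus strand) and of its copy Gm28438 (chr1:24613060-24613119, minus strand), where capitals mark the 1 base of 345 that differs (T3C, counted from 1 at the 5′ end of mt-Nd3, the base of mt-Nd3 first).
mt-Nd3: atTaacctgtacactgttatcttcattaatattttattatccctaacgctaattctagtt
Gm28438: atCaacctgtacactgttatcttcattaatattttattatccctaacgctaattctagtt
The second pair shows mt-Co1 (chrM:6390-6449) and Gm29216 (chr1:24616129-24616188), whose 483 aligned bases differ at 1 position, again in capitals (A1066T in mt-Co1 numbering).
mt-Co1: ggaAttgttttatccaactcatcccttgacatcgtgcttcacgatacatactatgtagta
Gm29216: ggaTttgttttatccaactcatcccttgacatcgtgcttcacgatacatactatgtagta
For mt-Co3 and Gm28437 all 783 aligned bases are the same, so the first 60 bases (chrM:8607-8666 and chr1:24613912-24613971) are given once.
mt-Co3: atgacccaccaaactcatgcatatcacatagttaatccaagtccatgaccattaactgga

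The copies took a large part of the mitochondrial counts in both tables. Of the counts on mt-Co3 and Gm28437 together, 50.5% of those in the WT and KO table and 49.99% of those in the sorted table were listed under the pseudogene. The share was 45.9% and 47.5% for mt-Atp6, 46.3% and 53.8% for mt-Nd4l, 37.6% and 38.3% for mt-Co2, and 27.3% and 27.5% for mt-Co1. The mt-Co1 and mt-Co2 shares include Gm13340 and Gm13341, copies on chromosome 2 with few counts. For these 5 genes the levels printed are therefore part of the signal of that sequence, and mt-Nd1, mt-Nd2, mt-Nd4, mt-Nd5, mt-Nd6, mt-Cytb and mt-Atp8 had no such copy at the thresholds used (95% identity over 80% of the shorter sequence).

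mt-Nd3 stood apart, because the split of its counts went opposite ways in the experiments. In the WT and KO table the copy held 997 counts against 4519 for mt-Nd3, a share of 18.1%. Single libraries ranged from 10.7% to 28.7%. In the sorted table the copy held 12711 counts against 2521 for mt-Nd3, a share of 83.5%, with libraries between 79.9% and 86.7%. The ranges do not meet, and the reference sequences of gene and copy differ by the single base shown above. Why the tables differ was not tested.

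Nuclear members with near-identical processed pseudogenes also differed between the tables, as the plot of copy shares shows. Over 10% of the signal lay on pseudogene rows for 15 of 91 nuclear members in the WT and KO table and for 6 of 90 in the sorted table. For Atp5g2, which encodes the c subunit of the ATP synthase ring, the share was 94.7% in the first table and 30.1% in the second. It was 57.5% and 14.7% for Atp5g1, 46.8% and 2.36% for Atp5h, and 52.8% and 2.20% for Cox7c. Ndufb4 was high in both, at 72.1% and 62.7%. Levels of these genes are uncertain, and no level was compared across the tables.

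**Figure D1:**
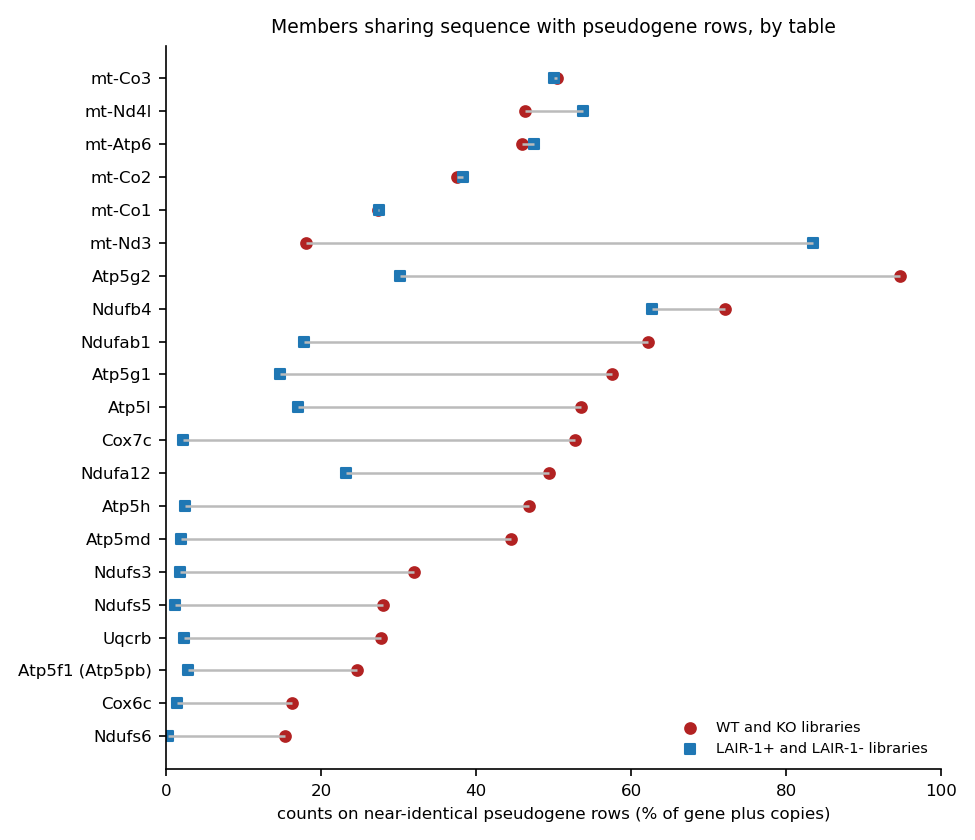
Share of counts listed under near-identical pseudogene rows, as a percent of gene plus copies (horizontal axis), for each member above 10% in either table. Red points are the WT and KO libraries and blue squares the LAIR-1+ and LAIR-1- libraries, each summed over 6 libraries; mt-Nd3 runs from 18.1% to 83.5% and most nuclear members run the other way.

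The promoters of 3 nuclear genes are shown. Of the nuclear genes counted with complex I by name, assembly factors aside, Ndufb10 had the smallest p in KO against WT and Ndufa4 between the sorted fractions. Sdhd belongs to the complex with no mitochondrial subunit. They span 250 bases before to 50 after the start in RefSeq (GRCm38.p6), all on the minus strand. Capitals mark matches, on either strand, to GCGCANGCG for NRF1, CCGGAAG for ETS-family factors or AAGATGGCG for YY1, and no matches overlapped in these 3. Ndufb10 (chr17:24724374-24724673) has 1 NRF1 match, Sdhd (chr9:50603800-50604099) has 1 NRF1 and 1 ETS match, and Ndufa4 (chr6:11907401-11907700) has none in this window.
Ndufb10: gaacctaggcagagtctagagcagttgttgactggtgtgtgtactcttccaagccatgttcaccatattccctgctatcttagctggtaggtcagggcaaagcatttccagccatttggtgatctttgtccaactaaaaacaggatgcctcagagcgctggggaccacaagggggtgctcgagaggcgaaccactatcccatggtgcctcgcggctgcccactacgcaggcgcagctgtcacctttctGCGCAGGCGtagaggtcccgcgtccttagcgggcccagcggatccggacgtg
Sdhd: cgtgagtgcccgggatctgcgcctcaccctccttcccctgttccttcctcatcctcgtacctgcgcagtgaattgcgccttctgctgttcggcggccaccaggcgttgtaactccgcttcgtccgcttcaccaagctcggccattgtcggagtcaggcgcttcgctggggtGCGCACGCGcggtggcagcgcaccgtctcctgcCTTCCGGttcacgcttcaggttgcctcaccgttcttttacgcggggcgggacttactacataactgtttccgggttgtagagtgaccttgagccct
Ndufa4: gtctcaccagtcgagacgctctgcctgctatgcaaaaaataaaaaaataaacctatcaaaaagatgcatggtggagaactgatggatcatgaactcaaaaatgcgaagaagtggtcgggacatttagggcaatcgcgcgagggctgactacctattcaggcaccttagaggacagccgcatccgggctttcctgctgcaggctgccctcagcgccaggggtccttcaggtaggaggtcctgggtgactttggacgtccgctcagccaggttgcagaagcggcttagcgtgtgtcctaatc
A promoter was matched for 74 of the 92 nuclear symbols. The NRF1 letters were in 22 of these 74 (29.7%) against 7.03% of all 27025 genes with a promoter, the ETS letters in 19 (25.7%) against 9.93%, and the YY1 letters in 8 (10.8%) against 1.64%. By complex, at least 1 of the 3 was in 20 of 40 promoters of complex I, 3 of 3 of complex II, 3 of 5 of complex III, 3 of 11 of complex IV and 11 of 15 of complex V, in all 40 of 74 (54.05%) against 16.52% of all 27025. These are matches of letters and no measure of binding. The 27025 genes were not limited to those expressed in these cells, so the contrast may not be particular to the respiratory chain.

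Listed counts per library numbered 18061470 to 20878649 for the WT and KO libraries and 18885002 to 28290487 for the sorted ones. Lair1 itself had 70, 200 and 153 counts in WT 9, 10 and 11 and 9, 0 and 67 in KO 13, 14 and 15, so the library labelled KO 15 held about as much as WT 9. Lair1 had 184 to 314 counts in LAIR-1+ and 11 to 56 in LAIR-1-. All 12 ILC2 markers had counts, with a summed level of 9994 to 11180 CPM (counts scaled to a common library total, by TMM here and below) in WT, 12530 to 15638 in KO and 8825 to 10114 in the sorted libraries. In KO against WT 5 of the 12 had log2 fold changes above 0 (median -0.052). None was called there (adjusted p under 0.05 in edgeR). Between the sorted fractions 5 were above 0 (median -0.039), and 3 were called higher in LAIR-1-. Of all genes, 4.01% were called between the fractions. Among lists for other cell types, 6 of 9 epithelial markers were listed in WT and KO. Their sum was 49.1, 52.5 and 131 CPM in WT 9, 10 and 11 and 17.9 to 35.0 CPM in KO. Among the sorted libraries 8 of 9 were listed, and the sum was 35.8 to 115 CPM in LAIR-1+ and 25.4 to 33.3 CPM in LAIR-1-. The myeloid list (9 of 10 listed there) summed to 30.5 to 41.7 CPM in LAIR-1+ and 6.30 to 10.8 CPM in LAIR-1-. The endothelial list went the other way, at 18.9 to 22.6 CPM in WT and 24.5 to 44.4 CPM in KO (1 of 5 markers listed), and at 23.4 to 26.5 CPM in LAIR-1+ and 38.5 to 40.6 CPM in LAIR-1- (2 of 5 listed, 1 tested and called higher). Of 5 epithelial markers tested between the fractions, 4 were called lower and 1 higher in LAIR-1-. Of 5 myeloid markers tested there, 2 were called lower. The T cell list overlapped between groups, at 14.9 to 24.0 CPM over the WT and KO libraries (3 of 7 listed), and at 53.6 to 65.3 CPM in LAIR-1+ and 64.3 to 83.4 CPM in LAIR-1- (5 of 7 listed). The B cell list (3 of 5 listed) was at 6.96 to 10.8 CPM in LAIR-1+ and 11.7 to 14.2 CPM in LAIR-1-. The NK cell and ILC1 list (3 of 6 listed) was at 2.70 to 6.11 and 1.21 to 2.47 CPM. Both of these overlapped between WT and KO. The mast cell and basophil list (6 of 6 listed) was at 43.9 to 103 CPM in LAIR-1+ and 44.0 to 52.3 CPM in LAIR-1-. None of its 6 genes was called there. In WT and KO 1 of 6 was listed, at 3.87 CPM at most. The part of these markers in the results was not tested.

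The balance of the genomes was read first from summed counts. In WT the 13 mitochondrial mRNAs took 0.553%, 0.550% and 0.331% of the listed counts in libraries 9, 10 and 11, and in KO they took 0.689%, 0.620% and 0.653%. The nuclear members took 1.44%, 1.53% and 1.44% in WT and 1.42%, 1.44% and 1.49% in KO. Mitochondrial counts per nuclear count were thus 0.384, 0.360 and 0.230 in WT and 0.485, 0.430 and 0.437 in KO, with means of 0.325 ± 0.0827 and 0.451 ± 0.0301 (SD, n = 3 per group). Every KO ratio exceeded every WT ratio, and WT 11 lay far below the rest. The difference of the mean log2 ratio was 0.51, and 0.28 without WT 11. With the nuclear copies of the mitochondrial genes added, the ratios were 0.522, 0.495 and 0.314 in WT and 0.652, 0.570 and 0.576 in KO, so the groups were still apart.

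In the sorted fractions the ratio was 0.362, 0.361 and 0.351 in LAIR-1+ and 0.379, 0.295 and 0.295 in LAIR-1- libraries 7, 8 and 10, with means of 0.358 ± 0.00589 and 0.323 ± 0.0481 (SD, n = 3 per group). These groups overlapped, since LAIR-1- 7 had the highest ratio of the 6. The components behind the low ratios of LAIR-1- 8 and 10 differed. LAIR-1- 8 had the largest nuclear share, 2.23% against 1.85% to 2.05% in the other sorted libraries, while LAIR-1- 10 had the smallest mitochondrial share, 0.588% against 0.658% to 0.777%. In LAIR-1- 8 mt-Co1 also made up only 10.6% of the mitochondrial counts, against 16.0% to 19.5% in the other sorted libraries. The median mitochondrial gene of LAIR-1- 8 lay 0.094 (log2) above its mean over the 6 libraries. The part of each in the ratio was not tested. In bulk libraries fewer cells of a type and less RNA per cell cannot be told apart.

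**Figure D2:**
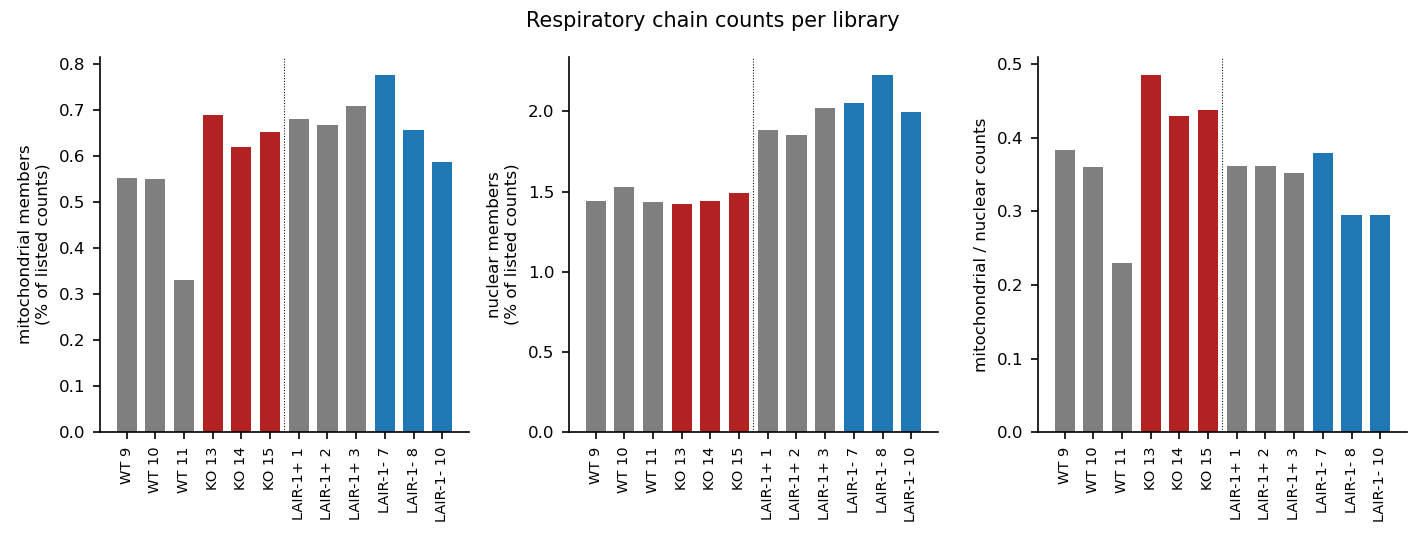
Counts of the 13 mitochondrial members and of the nuclear members as a percent of listed counts, and their ratio, one bar per library (grey WT or LAIR-1+, red KO, blue LAIR-1-; the dotted line divides the tables). WT 11 has the lowest mitochondrial share (0.331%) and ratio (0.230), and LAIR-1- 8 the highest nuclear share (2.23%).

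The comparison of KO with WT asked how loss of LAIR-1 is reflected in mRNA. No respiratory chain gene passed in it: 0 of 103 members tested, on a background of 1 in 14164 genes (0.00706%), at an adjusted p under 0.05 in edgeR. With an unadjusted p under 0.05 were 12 of the 103, against 8.37% of all genes, 6 of them mitochondrial and higher in KO and 6 nuclear (5 lower, 1 higher). All 13 mitochondrial mRNAs had log2 fold changes above 0, from 0.10 to 0.91, with a median of 0.46, while the nuclear members had a median of -0.0060 (43 above 0, 47 below) and all genes tested a median of 0.0035. In 8 of the 13 mitochondrial mRNAs every KO library was above every WT library, against 8.2% of all genes. The 13 come from the same precursors in the same libraries, so they are not 13 separate observations.

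**Figure D3:**
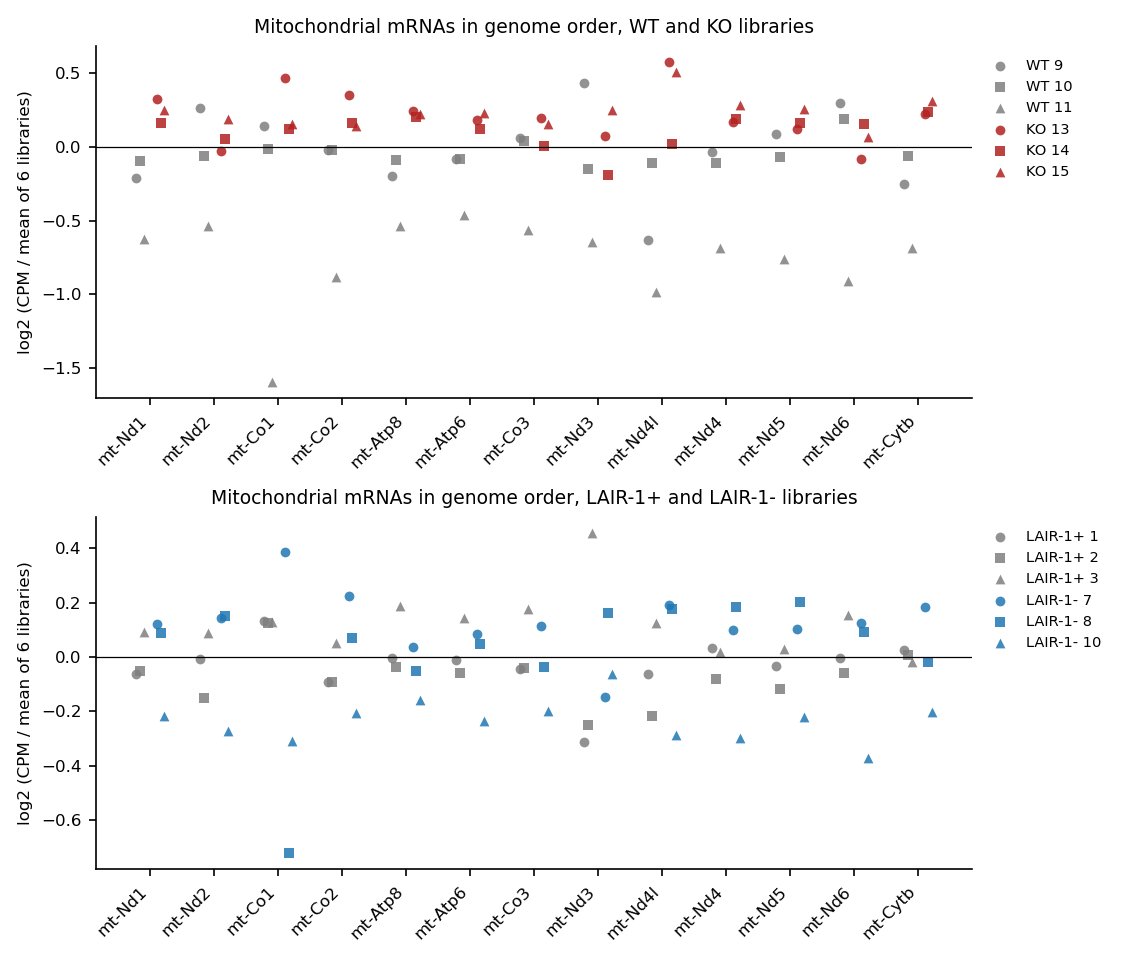
Level of each mitochondrial mRNA, in genome order, as log2 of its CPM over its mean in the 6 libraries of the table (upper: WT grey, KO red; lower: LAIR-1+ grey, LAIR-1- blue; marker shapes are libraries). WT 11 is the lowest library for all 13 genes above, mt-Co1 is lowest there and in LAIR-1- 8 below, and LAIR-1- 10 is lowest for 11 of 13.

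WT 11 carried much of this contrast. It was the lowest of the 6 libraries in all 13 genes, and its level was between 0.292 (mt-Co1) and 0.687 (mt-Atp6) of the mean of the other 5. Without it the median over the 13 was 0.25, and mt-Nd2, mt-Nd3 and mt-Nd6 had log2 fold changes of -0.036, -0.11 and -0.19. Without WT 9 the median was 0.56. WT 11 was also the library with the highest summed epithelial markers (131 CPM, given above); the part of that in the result was not tested.

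For complex I, mt-Nd1 (chrM:2751-3707), the membrane subunit beside the quinone site, was at 574, 621 and 431 CPM in WT and 829, 741 and 787 CPM in KO. The groups did not overlap and the log2 fold change was 0.54 ± 0.14 (SE, n = 3 per group, adjusted p = 0.395). mt-Nd4, a proton-pumping subunit, was at 277, 263 and 177 CPM in WT and 319, 323 and 345 CPM in KO (0.46 ± 0.17, adjusted p = 0.529). mt-Nd5, another pumping subunit, was at 332, 297 and 185 CPM and at 339, 350 and 373 CPM (0.38 ± 0.21, adjusted p = 0.695). These are also apart, though mt-Nd5 of WT 9 lay only just below the KO libraries. mt-Nd4l, whose reading frame overlaps that of mt-Nd4, was low, at 9.65, 13.8 and 7.56 CPM in WT and 22.2, 15.1 and 21.2 CPM in KO. It had the largest log2 fold change of the 13 (0.91 ± 0.32, adjusted p = 0.513).

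The other complex I genes overlapped between WT and KO. mt-Nd2 was at 178, 142 and 102 CPM in WT and 145, 153 and 169 CPM in KO. mt-Nd3 was at 51.7, 34.5 and 24.6 CPM and at 40.2, 33.6 and 45.5 CPM. mt-Nd6 (chrM:13552-14070, minus strand), the one subunit read from the other strand, was at 93.3, 86.4 and 40.6 CPM and at 71.7, 84.7 and 79.5 CPM, the smallest log2 fold change of the 13 (0.10 ± 0.30, adjusted p = 0.970). The sources used here do not say whether counting used strand, so reads of the 2 strands over mt-Nd6 cannot be told apart here. Its end also overlaps the last bases of mt-Nd5 (chrM:11742-13565).

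For complex III, mt-Cytb (chrM:14145-15288), the subunit that carries the b hemes, was at 897, 1022 and 666 CPM in WT and 1247, 1257 and 1325 CPM in KO. The KO libraries lay close together and above all WT libraries, with a log2 fold change of 0.57 ± 0.15 (SE, n = 3 per group, adjusted p = 0.402). For complex V, mt-Atp8 was at 180, 194 and 143 CPM and at 244, 237 and 241 CPM (0.48 ± 0.13, adjusted p = 0.402). mt-Atp6, which forms the proton channel and overlaps mt-Atp8, was at 588, 590 and 452 CPM and at 705, 678 and 731 CPM (0.37 ± 0.11, adjusted p = 0.444). Both were apart between the groups. Under DESeq2, which called 4.22% of the genes it adjusted, mt-Cytb (adjusted p = 0.00490), mt-Nd1 (adjusted p = 0.00725) and mt-Atp8 (adjusted p = 0.0279) passed, while limma-voom with quality weights, which called 0.0141% of all genes, called no member.

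For complex IV, mt-Co1, the catalytic subunit with the oxygen-binding heme, was at 1166, 1048 and 351 CPM in WT and 1461, 1148 and 1176 CPM in KO. The groups overlapped, and the log2 fold change of 0.56 ± 0.41 (adjusted p = 0.791) was 0.19 without WT 11. mt-Co1 made up 10.6% of the mitochondrial counts in WT 11 against 17.8% to 21.4% in the other 5. mt-Co2, which takes electrons from cytochrome c, was at 445, 446 and 245 CPM and at 577, 506 and 499 CPM, apart between groups (0.48 ± 0.23, adjusted p = 0.646). mt-Co3 was at 747, 740 and 487 CPM and at 822, 721 and 800 CPM, with overlap (0.25 ± 0.17, adjusted p = 0.779).

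The mitochondrial ribosomal RNAs, which are read from the same strand, overlapped between KO and WT. mt-Rnr1 (12S) was at 238, 242 and 141 CPM in WT and 176, 152 and 152 CPM in KO (-0.37 ± 0.21, adjusted p = 0.719). mt-Rnr2 (16S) was at 1822, 1607 and 708 CPM and at 1130, 1250 and 1480 CPM (-0.10 ± 0.33, adjusted p = 0.974). Mitochondrial mRNA counts per rRNA count were 2.69, 2.97 and 3.90 in WT and 5.22, 4.46 and 4.04 in KO. WT 11 had the least of both kinds of RNA but a ratio near that of KO 15.

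Among nuclear genes of complex I, 22 of 46 were above 0 in KO against WT and the median was -0.034. The 3 with the smallest p were all lower in KO. Ndufb10 (chr17:24722060-24724478), an accessory subunit of the membrane arm, was at 144, 152 and 141 CPM in WT and 108, 107 and 125 CPM in KO, without overlap (-0.37 ± 0.11, adjusted p = 0.433). Ndufa4 was at 246, 209 and 197 CPM and at 163, 177 and 184 CPM, also without overlap (-0.31 ± 0.11, adjusted p = 0.519). Ndufs1, the large iron-sulfur subunit of the matrix arm, was at 167, 178 and 132 CPM and at 119, 133 and 114 CPM, where WT 11 lay just below KO 14 (-0.39 ± 0.14, adjusted p = 0.523). Over all 90 nuclear members, 8 were lower in every KO library than in every WT library and 2 were higher, against 7.97% and 8.2% of all genes, so the count is near the background in the first case and below it in the second.

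In complex II 2 genes were above and 2 below 0 in KO. Sdha, the flavoprotein, was at 297, 367 and 334 CPM in WT and 317, 331 and 284 CPM in KO (-0.10 ± 0.11, adjusted p = 0.887). Sdhb, the iron-sulfur subunit, was at 343, 370 and 368 CPM and at 363, 357 and 392 CPM (0.04 ± 0.08, adjusted p = 0.953). The membrane anchors Sdhc and Sdhd differed by 0.16 ± 0.14 and -0.0012 ± 0.11 on the log2 scale (adjusted p = 0.845 and 0.998). All 4 overlapped between groups.

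In complex III, Uqcrq, a small subunit next to cytochrome b, was at 166, 193 and 180 CPM in WT and 202, 220 and 209 CPM in KO, without overlap (0.22 ± 0.09, adjusted p = 0.593). Uqcrc2, a core subunit, was at 131, 136 and 166 CPM and at 156, 177 and 184 CPM, with overlap (0.26 ± 0.13, adjusted p = 0.660), and Uqcr11 had a log2 fold change of -0.14 ± 0.13 (adjusted p = 0.864). The 8 genes divided evenly, 4 above and 4 below 0, with a median of 0.00042. In complex IV the smallest p belonged to Cox7b (0.15 ± 0.13, adjusted p = 0.832), Cox7a2l (-0.24 ± 0.24, adjusted p = 0.875) and Cox6b1 (0.08 ± 0.09, adjusted p = 0.891), all with overlap. In complex V, Atp5mpl, a small accessory subunit, was at 102, 99.4 and 98.2 CPM in WT and 78.5, 83.1 and 84.3 CPM in KO, without overlap (-0.28 ± 0.10, adjusted p = 0.523). Atp5g1 had 0.31 ± 0.14 (adjusted p = 0.641) and Atp5h -0.15 ± 0.10 (adjusted p = 0.756), and both lose over 10% of their signal to copies as given above.

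**Figure D4:**
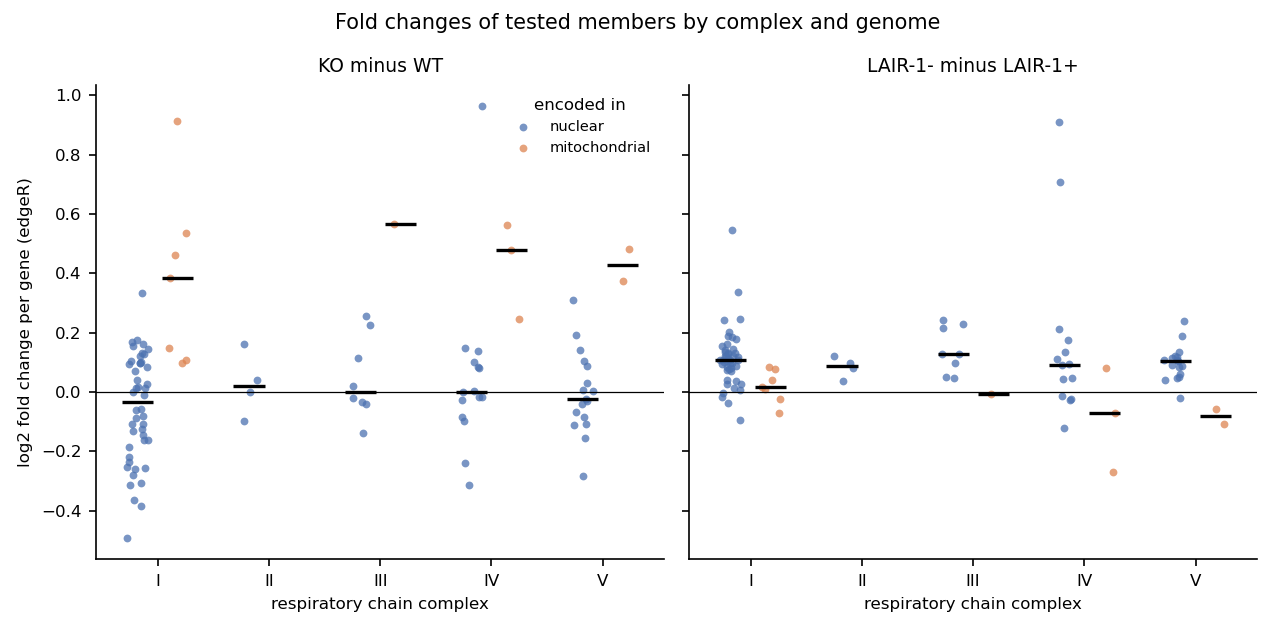
Log2 fold change of every tested member, by complex (horizontal axis) and by genome (blue nuclear, orange mitochondrial), with black bars at the medians; left KO minus WT, right LAIR-1- minus LAIR-1+. On the left the mitochondrial medians are 0.38, 0.57, 0.48 and 0.43 for complexes I, III, IV and V beside nuclear medians near 0, and on the right the nuclear medians are 0.088 to 0.13 beside mitochondrial medians from -0.082 to 0.018.

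Between the sorted fractions no member passed either: 0 of 102 tested, on a background of 572 of 14261 genes (4.01%). Of 89 nuclear members 80 were above 0, with a median log2 fold change of 0.11 against 0.0054 for all genes, and the medians were 0.11, 0.088, 0.13, 0.092 and 0.10 for complexes I to V. The mitochondrial median was -0.0079, with 6 of 13 above 0, and it was 0.081 without LAIR-1- 10. With an unadjusted p under 0.05 were 13 nuclear members, all higher in LAIR-1-, and no mitochondrial one, against 15.4% of all genes. Only 9 of the 89 were higher in every LAIR-1- library and 1 was lower, where 9.64% and 11.3% of all genes were.

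The nuclear median depended on single libraries. LAIR-1- 8 was the highest of the 6 libraries for 67 of 89 nuclear members, and LAIR-1+ 2 the lowest for 51. LAIR-1+ 2 also had the highest summed epithelial markers (115 CPM) and mast cell and basophil markers (103 CPM) of the sorted libraries. The part of that in the result was not tested. Relative to each gene's mean over the 6 libraries, the median nuclear member lay at -0.094, -0.13 and 0.061 (log2) in LAIR-1+ 1, 2 and 3 and at 0.027, 0.17 and -0.043 in LAIR-1- 7, 8 and 10. LAIR-1+ 3 was thus above LAIR-1- 7 and 10. Without LAIR-1- 8 the nuclear median was 0.041 and without LAIR-1+ 3 it was 0.16.

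Among complex I genes, Ndufaf2, an assembly factor that acts late in building the complex, was at 13.1, 11.9 and 12.3 CPM in LAIR-1+ and 19.0, 21.1 and 14.6 CPM in LAIR-1-. These were apart, and its adjusted p was the smallest of all members (0.55 ± 0.16, SE, n = 3 per group, adjusted p = 0.0851). It passed without LAIR-1- 10 (0.69, adjusted p = 0.0347) and under DESeq2 (adjusted p = 0.0328). Ndufa4 was at 216, 215 and 239 CPM and at 250, 303 and 241 CPM, again apart but higher in the group lacking LAIR-1 (0.24 ± 0.09, adjusted p = 0.210). Ndufa12, an accessory subunit, was at 113, 111 and 126 CPM and at 136, 153 and 124 CPM (0.24 ± 0.09, adjusted p = 0.214), with LAIR-1- 10 inside the LAIR-1+ range. Of the Ndufa12 signal in the sorted table, 23.2% lay on a pseudogene row. Ndufb10, the first of the complex I genes above, was at 119, 112 and 126 CPM and at 126, 135 and 120 CPM (0.10 ± 0.08, adjusted p = 0.634).

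No complex II gene was apart between the fractions. Sdhb, the highest per kilobase of the 4, was at 429, 400 and 457 CPM in LAIR-1+ and 451, 503 and 446 CPM in LAIR-1- (0.12 ± 0.08, adjusted p = 0.502). Sdhd, Sdha and Sdhc had log2 fold changes of 0.10 ± 0.07, 0.08 ± 0.09 and 0.04 ± 0.09 (adjusted p = 0.585, 0.749 and 0.907). In complex III all 8 nuclear genes were above 0. Uqcrc2 was at 161, 168 and 174 CPM in LAIR-1+ and 202, 195 and 191 CPM in LAIR-1-, and was apart (0.23 ± 0.07, adjusted p = 0.101). It passed under DESeq2 (adjusted p = 0.0435) and under limma-voom with quality weights (adjusted p = 0.0456), which called 6.0% and 4.71% of the genes they tested. Uqcrq was at 254, 251 and 293 CPM and at 304, 349 and 291 CPM (0.24 ± 0.09, adjusted p = 0.194), and Uqcr10, another small subunit, at 209, 195 and 224 CPM and at 229, 279 and 221 CPM (0.21 ± 0.09, adjusted p = 0.298). Both overlapped between the fractions.

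In complex IV, Cox5a, a matrix-side subunit, was at 352, 336 and 395 CPM in LAIR-1+ and 416, 462 and 377 CPM in LAIR-1- (0.21 ± 0.09, adjusted p = 0.266). In complex V, Atp5g1 was at 193, 186 and 217 CPM and at 233, 257 and 213 CPM (0.24 ± 0.09, adjusted p = 0.196). Of its signal in the sorted table, 14.7% lay on a pseudogene row. Atp5md and the α subunit gene Atp5a1 had log2 fold changes of 0.19 ± 0.11 and 0.11 ± 0.06 (adjusted p = 0.485 and 0.486). Atp5b, the catalytic β subunit and the most abundant nuclear member, was at 1898, 1973 and 1987 CPM and at 2083, 2041 and 2107 CPM. The fractions did not overlap, yet the log2 fold change was only 0.09 ± 0.06 (adjusted p = 0.504).

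The mitochondrial mRNAs of the sorted fractions all overlapped. mt-Nd1 was at 731, 738 and 815 CPM in LAIR-1+ and 832, 813 and 658 CPM in LAIR-1- (0.01 ± 0.09, adjusted p = 0.974). mt-Cytb was at 982, 969 and 951 CPM and at 1096, 952 and 839 CPM (-0.01 ± 0.09, adjusted p = 0.981). mt-Co1 was the exception in its spread: 1263, 1255 and 1260 CPM in LAIR-1+ and 1506, 698 and 928 CPM in LAIR-1- (-0.27 ± 0.20, adjusted p = 0.592). The LAIR-1- libraries lay on both sides of the tight LAIR-1+ values, and mt-Co1 passed, lower, when LAIR-1- 7 was left out (-0.63, adjusted p = 0.0136).

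For the remaining mitochondrial genes the sorted differences were small. In complex I they were 0.04 ± 0.11 for mt-Nd2, -0.02 ± 0.20 for mt-Nd3, 0.02 ± 0.11 for mt-Nd4, 0.08 ± 0.16 for mt-Nd4l, 0.08 ± 0.10 for mt-Nd5 and -0.07 ± 0.12 for mt-Nd6 on the log2 scale. In complexes IV and V they were 0.08 ± 0.10 for mt-Co2, -0.07 ± 0.09 for mt-Co3, -0.11 ± 0.08 for mt-Atp8 and -0.06 ± 0.09 for mt-Atp6. LAIR-1- 10 was below the mean of the other 5 libraries in all 13 genes, at 0.738 (mt-Nd6) to 0.950 (mt-Nd3) of it. The rRNAs spread as widely, with mt-Rnr2 at 2938, 2776 and 3781 CPM in LAIR-1+ and 3878, 2895 and 2163 CPM in LAIR-1-.

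Levels per length were set within each table, as CPM per kilobase of the GENCODE M21 transcript. The longest of each gene's top-ranked coding transcripts was used. It had 4715 bases for Atp5g1, 4371 for Ndufb2, 3479 for Ndufab1 and 2733 for Atp5md. These genes were at 22.4, 15.8, 16.1 and 26.1 CPM per kilobase in WT and KO, low values that depend on that choice. In WT and KO the median was 114 for the nuclear subunits of complex I, 145 for complex II, 219 for complex III, 183 for complex IV and 230 for complex V. The mitochondrial genes reached 146 at the median in complex I, 934 in complex III (mt-Cytb), 685 in complex IV and 965 in complex V. In the sorted table the nuclear medians were 147, 144, 277, 452 and 347 and the mitochondrial ones 212, 843, 1022 and 1100. mt-Nd1 stood above the other complex I genes of mitochondrial DNA, at 694 and 799 CPM per kilobase, where the other 6 lay at 50.2 to 206 (WT and KO) and at 51.9 to 262 (sorted fractions). All these levels leave out counts on pseudogene copies. With copies added, mt-Nd3 was at 135 (WT and KO) and 317 CPM per kilobase (sorted fractions), and mt-Nd4l at 93.7 and 139. Likewise mt-Atp6 was at 1693 and 2042, mt-Co3 at 1854 and 2957, mt-Co2 at 1060 and 1655, and mt-Co1 at 945 and 1028. The highest nuclear members per kilobase were Ndufa4 among the genes counted with complex I by name (322 and 400), Sdhb in complex II (320 and 392), Uqcr10 in complex III (371 and 521), Cox6a1 in complex IV (589 and 919) and Atp5b in complex V (871 and 1052).

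**Figure D5:**
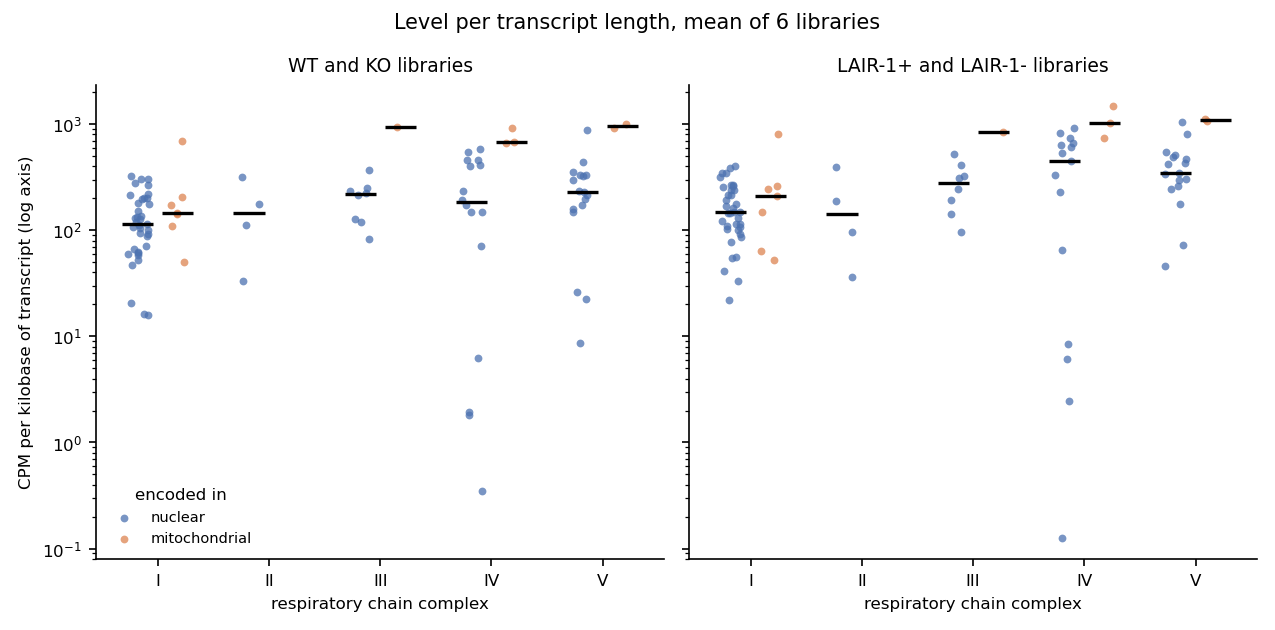
Mean level over the 6 libraries of a table, in CPM per kilobase of transcript on a log axis, for each subunit gene by complex and genome (blue nuclear, orange mitochondrial; black bars are medians; assembly factors and counts on pseudogene copies left out). Mitochondrial genes of complexes III to V lie at medians of 685 to 1100, complex I genes of both genomes at medians of 114 to 212, and the lowest points in complex IV are tissue-restricted isoforms.

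Complex IV subunits with tissue-restricted isoforms were represented by the common form. Cox4i1 was at 389 to 469 CPM in WT and KO and 508 to 627 CPM in the sorted libraries, while Cox4i2, the isoform known from lung, was at most 0.857 and 0.284 CPM and did not pass the filter on low counts. Cox6a1 was at 314 to 360 CPM and 479 to 603 CPM, against at most 2.01 and 3.00 CPM for the muscle isoform Cox6a2. Cox7a2 was at 253 to 288 CPM and 388 to 497 CPM, against at most 1.33 and 2.84 CPM for the muscle isoform Cox7a1. Cox7a2l, which encodes a related protein, was at 59.5 to 111 CPM and 60.4 to 76.5 CPM. Cox8a was at 240 to 268 CPM and 419 to 486 CPM. Cox8b, Cox8c and Ndufa4l2 were not among the members listed in either table.

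Cox6b2, known as the testis isoform, was the one restricted form above 5 CPM in any library. It was at 3.27, 4.13 and 3.80 CPM in LAIR-1+ and 7.31, 6.61 and 4.49 CPM in LAIR-1-, without overlap (0.71 ± 0.24, adjusted p = 0.161). The common form Cox6b1 was at 372, 361 and 412 CPM and at 396, 441 and 385 CPM. Cox6a2 was at 1.42, 1.23 and 0.853 CPM and at 3.00, 1.57 and 2.02 CPM (0.91 ± 0.39, adjusted p = 0.287). In WT and KO Cox6b2 was at 2.16 to 4.65 CPM with overlap. Cox5b-ps, typed as protein coding in the WT and KO table and a pseudogene of Cox5b by its name, was at 52.3 to 60.7 CPM beside 113 to 148 CPM for Cox5b, and reads of the pair may be shared.

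The 8 assembly factors were expressed below the subunits, with a median of 28.7 CPM in WT and KO and 26.9 CPM in the sorted table, against 128 and 179 CPM for the other nuclear members. In KO against WT 6 of 8 were below 0 (median -0.15). Ndufaf7, a methyltransferase of an early complex I intermediate, was at 51.8, 64.8 and 48.2 CPM in WT and 30.4, 43.1 and 43.8 CPM in KO (-0.49 ± 0.21, adjusted p = 0.607). Between the sorted fractions 7 of 8 were above 0 (median 0.11), with Ndufaf5 at 17.8, 15.5 and 16.5 CPM in LAIR-1+ and 19.2, 24.1 and 19.6 CPM in LAIR-1- (0.34 ± 0.13, adjusted p = 0.238), again without overlap.

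Related genes of mitochondrial function gave few calls. Of the 19 tested genes of mitochondrial DNA transcription and maintenance none passed in either comparison, and the smallest p belonged to Top1mt, the mitochondrial topoisomerase, in KO against WT (3.54 to 5.31 CPM in WT and 9.29 to 13.5 CPM in KO, 1.24 ± 0.37, adjusted p = 0.441) and to Polg2, the accessory subunit of the mitochondrial DNA polymerase, in the sorted fractions (0.60 ± 0.18, adjusted p = 0.101). None of the 19 genes of mitochondrial RNA processing passed. Lrpprc, which stabilises mitochondrial mRNAs, was at 48.6, 50.9 and 53.2 CPM in WT and 72.8, 57.3 and 62.3 CPM in KO, without overlap (0.33 ± 0.15, adjusted p = 0.620). Hsd17b10, a subunit of the mitochondrial RNase P, had 0.19 ± 0.09 in the sorted fractions (adjusted p = 0.364).

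Of the 11 tested PGC-1 and NRF regulators 1 passed: Myc, a transcription factor that drives mitochondrial gene expression, fell from 125, 111 and 121 CPM in LAIR-1+ to 89.0, 94.4 and 92.2 CPM in LAIR-1- (-0.37 ± 0.08, adjusted p = 0.0175). It did not pass without LAIR-1+ library 1 or 3 (adjusted p = 0.113 and 0.0566) or without LAIR-1- library 7 or 10 (adjusted p = 0.104 and 0.0576). In KO against WT Myc was at 83.5, 86.2 and 87.6 CPM in WT and 96.7, 144 and 148 CPM in KO, without overlap and not past the threshold (0.60 ± 0.18, adjusted p = 0.440). Of the 19 tested genes of the tricarboxylic acid cycle list none passed in KO against WT, and Pdhb, of pyruvate dehydrogenase, had the smallest p (0.20 ± 0.10, adjusted p = 0.649).

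No gene passed under edgeR in the lists that follow; calls by other tools or settings are given beside the gene. Among 44 assembly factors outside the symbols above, Cox17, the copper chaperone of complex IV, was at 99.8, 134 and 116 CPM in WT and 150, 147 and 155 CPM in KO (0.37 ± 0.13, adjusted p = 0.498), and Oxa1l, which inserts mitochondrial proteins into the membrane, had 0.29 ± 0.09 in the sorted fractions (adjusted p = 0.122). Among 19 electron carriers and entry enzymes, Gpd2, the mitochondrial glycerol 3-phosphate dehydrogenase, was at 78.7, 74.8 and 68.5 CPM in WT and 109, 92.8 and 104 CPM in KO (0.46 ± 0.12, adjusted p = 0.402; 0.0482 under DESeq2), and the list had 15 genes above 0 with a median of 0.25, beside a median of 0.0035 over all genes. In the sorted fractions it had 14 above 0, with the smallest p for the coenzyme Q methyltransferase Coq5 (0.19 ± 0.09, adjusted p = 0.362).

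The 9 tested carriers of ADP, ATP and phosphate and uncoupling proteins were led by Ucp2 in KO against WT (-0.14 ± 0.08, adjusted p = 0.737) and by the channel Vdac3 in the sorted fractions (0.25 ± 0.07, adjusted p = 0.0580). Vdac3 passed with scaling by library totals (adjusted p = 0.0388), with either filter on mean CPM (adjusted p = 0.0431 and 0.0410), and under DESeq2, limma-voom and limma-trend (adjusted p = 0.0122, 0.0420 and 0.0365). The 15 genes of cristae and inner membrane had Phb (0.42 ± 0.14, adjusted p = 0.503) and Phb2 (0.17 ± 0.07, adjusted p = 0.256), the prohibitins, at their head. Of the 78 mitochondrial ribosomal protein genes, whose products translate the 13 mRNAs, 32 were above 0 in KO against WT (median -0.045) and 63 in the sorted fractions (median 0.084), led by Mrpl28 (-0.48 ± 0.12, adjusted p = 0.384) and Mrps28 (0.32 ± 0.09, adjusted p = 0.0921). Under DESeq2 both passed (adjusted p = 0.0280 and 0.0361). The corresponding counts of nuclear members were 43 of 90 and 80 of 89. The nuclear copies of mitochondrial genes had a median of 0.33 in KO against WT (Gm10925 0.42 ± 0.12, adjusted p = 0.435; 0.0369 under DESeq2) and -0.056 in the sorted fractions (Gm29216 -0.31 ± 0.16, adjusted p = 0.383).

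The genes outside the chain whose log2 level across 6 libraries was most like the summed mitochondrial mRNA were named by Pearson correlation, as a description over libraries that share WT 11 as their lowest point in the first table. In WT and KO they were Rpl36-ps12, Gm28437 and Ptch1 (r = 0.985, 0.977 and 0.965 of 9389 genes), the second being the copy of mt-Co3. In the sorted table they were mt-Rnr2, Gm4617 and Gm7072 (r = 0.975, 0.963 and 0.958 of 9079 genes). The nuclear members had a median r of 0.020 and 0.152.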

How the data were processed

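RNA of 12 libraries was compared within 2 separate tables. The authors deposited each gene's estimated count, part of which are not whole, and the same values as CPM (counts scaled by library total) with 0.0001 added, as the values show. bcl2fastq 2.17.1.14, STAR 2.5.3a, Partek and the mm10 build are named in the submitters' processing notes; how reads were counted, with which annotation and whether by strand, is not stated in the sources used. Here the counts were rounded, filtered with filterByExpr, scaled by TMM and tested with edgeR 4.0.16 (R 4.3.3, quasi-likelihood F test, Benjamini-Hochberg adjustment over all genes tested, threshold 0.05) within each table. DESeq2 1.42.0 and limma 3.58.1 were alternatives. SE is the log2 fold change over the root of F. The script was tested on simulated data. Coordinates follow GENCODE M21, and copies were found with blastn 2.17.0+ among its transcripts (95% identity over 80% of the shorter). Named are all mitochondrial members, per complex and comparison the 3 nuclear members with the smallest p, the highest per complex, the Sdh genes, isoform pairs and, per related list, the genes that passed or else the one with the smallest p. Ndufb10 and Atp5b in the sorted fractions, Ndufaf7, Ndufaf5, Cox5b and the genes named for their copies were added after their values were seen. Members and lists were chosen with earlier results of these data known. Summing counts with copies was an alternative chosen after seeing the data. One result of the related lists is not reported here.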

Additional observations from a re-analysis of the deposited data

How the results depend on the processing

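The number of members called was 0 in both comparisons with edgeR under every scaling and filter tried, 3 in KO against WT under DESeq2, and, between the sorted fractions, 2 under DESeq2, 1 under limma-voom and 0 to 1 when single libraries were left out. No paired analysis was possible because the groups compared share no replicate numbers. Of 40 named genes per comparison, 429 of 437 log2 fold changes under other settings kept direction and side of the threshold in KO against WT and 399 of 429 between the sorted fractions. The exceptions that passed elsewhere are given beside each gene above, 6 in KO against WT and 10 between the sorted fractions; the reversed ones follow. The cause of the exceptions was not tested, except that scaling to the nuclear members sets their own median near 0 by construction (0.0070 between the sorted fractions, with the mitochondrial median at -0.11).

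In KO against WT Sdhd was at 0.012 under that scaling and at 0.00126 under limma-voom. Between the sorted fractions that scaling gave mt-Nd1 -0.088, mt-Nd2 -0.061, mt-Nd4 -0.087, mt-Nd4l -0.012, mt-Nd5 -0.026, mt-Co2 -0.016, Sdhd -0.0010, Sdha -0.013 and Sdhc -0.062. Library totals alone gave mt-Nd3 0.0073 and mt-Cytb 0.017. limma-voom gave mt-Nd3 0.053, mt-Nd4 -0.00440 and mt-Cytb 0.013, and limma-trend on log2(CPM + 1) gave mt-Nd3 0.034 and mt-Cytb 0.0018. With copies summed mt-Nd3 was at 0.013 and mt-Nd4l at -0.036.

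When each library was left out in turn, the log2 fold change in KO against WT ran from -0.036 to 0.35 for mt-Nd2, -0.11 to 0.43 for mt-Nd3, -0.19 to 0.31 for mt-Nd6, -0.0011 to 0.067 for Sdhb, -0.43 to 0.034 for Cox7a2l and -0.069 to 0.072 for Sdhd. Between the sorted fractions it ran from -0.045 to 0.11 for mt-Nd1, -0.035 to 0.17 for mt-Nd2, -0.16 to 0.27 for mt-Nd3, -0.080 to 0.15 for mt-Nd4, -0.015 to 0.19 for mt-Nd5, -0.15 to 0.075 for mt-Nd6, -0.11 to 0.081 for mt-Cytb, -0.015 to 0.19 for mt-Co2, -0.15 to 0.0074 for mt-Co3, -0.11 to 0.038 for mt-Atp6, -0.030 to 0.11 for Sdhc and -0.071 to 0.31 for mt-Rnr1. The log2 difference of the ratio of mitochondrial to nuclear counts ran from 0.28 to 0.64 and from -0.28 to -0.099.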

Other observations

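All 6 nuclear copies of mitochondrial genes on chromosome 1 had log2 fold changes above 0 in KO against WT, from 0.07 to 0.77. Whether the copies differ from each other was not tested, and the smallest values have wide errors. The largest was Gm10222, the copy of mt-Nd4l, higher in every KO library than in every WT library (0.77 ± 0.30, adjusted p = 0.548). Gm10222, Gm10925, Gm28661 and Gm28437 equal their mitochondrial genes in all aligned bases, so these rows are no separate measure of the copies. Gm29216, the copy of mt-Co1, was at 525, 486 and 165 CPM in WT and 465, 379 and 387 CPM in KO (0.07 ± 0.39, adjusted p = 0.987). Gm28438, the copy of mt-Nd3, was at 9.59, 11.4 and 3.90 CPM in WT and 7.49, 13.6 and 5.43 CPM in KO (0.09 ± 0.55, adjusted p = 0.988). Gm28661, the copy of mt-Co2, was at 227, 266 and 155 CPM in WT and 401, 301 and 278 CPM in KO, without overlap (0.60 ± 0.23, adjusted p = 0.544). Gm28437, the copy of mt-Co3, was at 748, 770 and 506 CPM in WT and 822, 756 and 801 CPM in KO, with overlap (0.23 ± 0.16, adjusted p = 0.779). Between the sorted fractions Gm28438, the copy of mt-Nd3, was at 86.6, 90.3 and 98.3 CPM in LAIR-1+ and 107, 93.9 and 78.7 CPM in LAIR-1- (0.02 ± 0.11, adjusted p = 0.964).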
